A study of Rattus norvegicus with 6 samples.

Results

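DNA methylation was examined at genes of the extracellular matrix and of its cell surface receptors: collagens, laminins and the proteins that link them, integrins, the proteases of the ADAMTS and matrix metalloproteinase (MMP) families, and the tissue inhibitors of metalloproteinases (TIMPs). Members were chosen by gene symbol alone, from all differentially methylated regions that the authors had annotated, and each region was counted once per cytosine context. Of 24862 annotated regions, 155 lay in or at the promoter of such a gene, and they belonged to 73 genes on 19 chromosomes.

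The regions came from brain microvascular endothelial cells (BMECs) of the rat hippocampus, sorted by flow cytometry as cells without CD45 (a leukocyte marker) and with CD31 (an endothelial marker). The Ctrl group comprised 3 unstressed rats, and the CUMS group comprised 3 rats exposed for 8 weeks to chronic unpredictable mild stress, a changing sequence of stressors such as restraint, food and water deprivation, cage tilt, wet bedding, cold swimming and continuous light. All were adult male Sprague-Dawley rats. Each region carried 1 level for CUMS and 1 level for Ctrl, in which the samples of a group were combined, so the levels below have no replicate error, the number of reads behind a region is not in the tables used here, and none of the differences could be compared with the spread between rats. Pairs of levels without a group name are given with CUMS first. Every region had been listed as differing, and the listed differences start near 2 points. Most of the 155 lie below the limit of 10 points that the methods name for final regions. This selection means that the direction, size and position of the differences can be described but that a gene without a region is only a gene not listed. The endothelial identity of the cells could not be checked against marker genes, since the tables list differing regions alone.

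The endothelium of a brain capillary rests on a basement membrane, a sheet in which a laminin network and a type IV collagen network are joined by nidogen and heparan sulfate proteoglycans. Integrins, receptors made of an alpha and a beta chain, anchor the cells to this sheet, and ADAMTS proteases and MMPs process or degrade its components while TIMPs inhibit them. In mammalian cells, methylation is found mainly at cytosines followed by guanine (CG), and clusters of such cytosines at promoters (CpG islands) are usually little methylated. Methylation in the other contexts, CHG and CHH (H is A, C or T), is low outside neurons and a few other cell types.

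The 155 regions comprised 111 with a higher level in CUMS, termed hypermethylated, and 44 with a lower level, termed hypomethylated. The hypermethylated share was 71.6%, beside 75.3% of all annotated regions. By context, 18 of 28 CG regions were hypermethylated (64.3%, beside 80.0% of all CG regions), 47 of 57 CHG regions (82.5%, beside 68.6%) and 46 of 70 CHH regions (65.7%, beside 78.5%). The matrix and integrin genes thus held fewer hypermethylated regions than the list as a whole in CG and CHH and more in CHG, and these shares were not tested. The difference reached 10 percentage points in 38 of the 155 regions (24.5%, beside 31.1% of all annotated regions). It reached 20 points in 13, beside 2333 of all 24862 annotated regions, and 7 of the 13 were hypermethylated and 6 hypomethylated. In CG, 5 hypermethylated and 6 hypomethylated regions reached 20 points, beside 1315 and 526 of all CG regions. In CHH, 2 hypermethylated regions did, beside 427 hypermethylated and 31 hypomethylated of all CHH regions. The symbols of the rule match 140 protein-coding genes of the RefSeq annotation, and 73 of them (52.1%) held a region, beside 25.9% of all 23154 protein-coding symbols. Gene length was not used here, and a longer gene has more sequence in which a region can be listed.

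**Figure D1:**
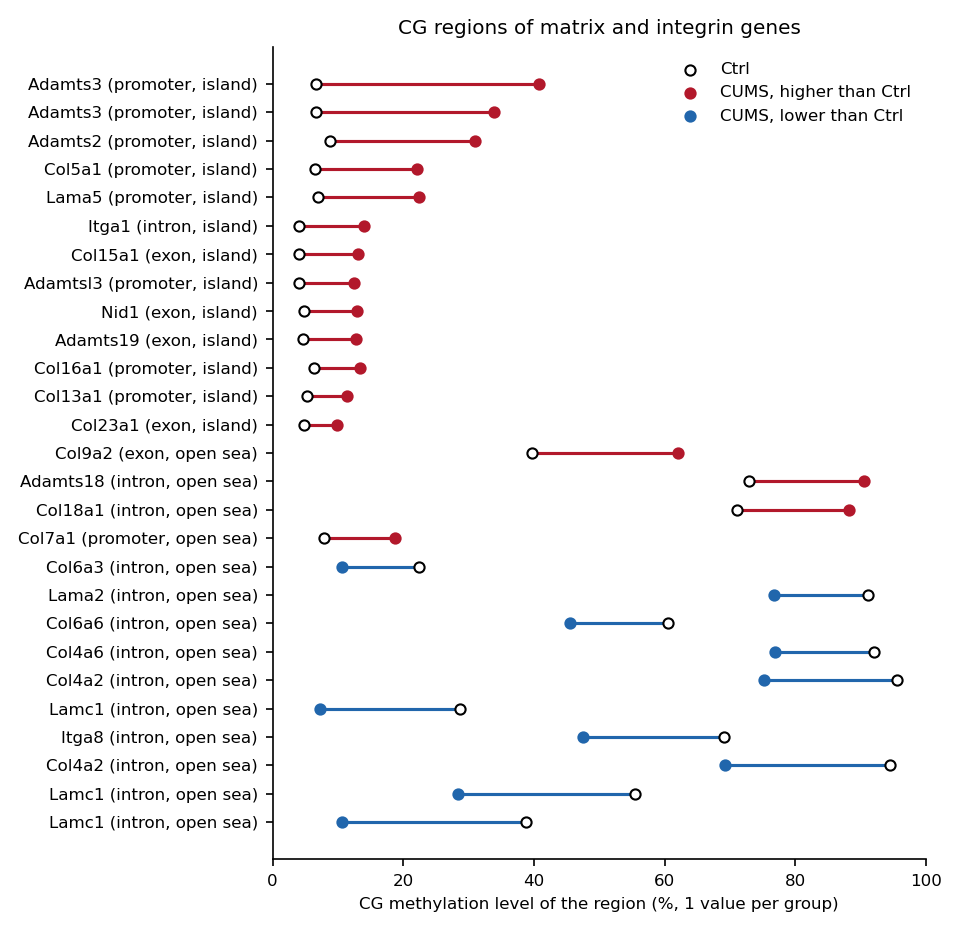
CG methylation level (%) of 27 of the 28 CG regions in Ctrl (open circles) and CUMS (filled circles, red where higher and blue where lower than Ctrl), 1 value per group, with the annotated feature and island class of the region. The 13 island regions start from Ctrl levels between 3.99% and 8.74% and all have a higher CUMS level, whereas the 10 regions with a lower CUMS level are all open sea intron regions.

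CG methylation was first examined at promoters and CpG islands, where these genes showed higher levels in CUMS throughout. All 13 CG regions in islands were hypermethylated, beside 97.0% of all CG regions in islands, and all 9 CG regions in promoters were hypermethylated, beside 96.9% of all CG regions in promoters, so the direction matched that of most listed islands and promoters. The genes with a CG promoter region encode procollagen N-proteinases (Adamts3 and Adamts2), a laminin chain (Lama5), collagens (Col5a1, Col7a1, Col13a1 and Col16a1) and an ADAMTS-like protein (Adamtsl3). Across the 13 island regions, the level ranged from 3.99% to 8.74% in Ctrl and from 9.87% to 40.8% in CUMS. Each region had been listed because its levels differed, so the gap between these ranges is no separate result. Over all 3083 CG regions in islands, the level ranged from 2.98% to 98.0% in Ctrl and from 6.37% to 96.1% in CUMS.

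The sequences upstream of the 5 genes with the largest CG differences in their promoters are shown to make the CG density visible. They are the 250 bases before the annotated transcription start site (TSS), 5′ to 3′ on the strand of the gene, from RefSeq on the GRCr8 assembly, with CG dinucleotides in capitals. The coordinates are chr14:18514999-18515248 (plus strand) for Adamts3, chr10:35421780-35422029 (plus strand) for Adamts2, chr3:187695975-187696224 (minus strand) for Lama5, chr3:31606630-31606879 (plus strand) for Col5a1 and chr8:118483114-118483363 (plus strand) for Col7a1. GRCr8 positions cannot be set against those of the regions, which are on mRatBN7.2, and whether a window lies within its region was not determined.

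Adamts3: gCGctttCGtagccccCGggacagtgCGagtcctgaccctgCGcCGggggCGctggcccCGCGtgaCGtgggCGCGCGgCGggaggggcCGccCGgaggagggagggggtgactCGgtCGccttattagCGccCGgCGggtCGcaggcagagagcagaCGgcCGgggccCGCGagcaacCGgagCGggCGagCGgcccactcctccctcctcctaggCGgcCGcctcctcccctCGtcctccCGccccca
Adamts2: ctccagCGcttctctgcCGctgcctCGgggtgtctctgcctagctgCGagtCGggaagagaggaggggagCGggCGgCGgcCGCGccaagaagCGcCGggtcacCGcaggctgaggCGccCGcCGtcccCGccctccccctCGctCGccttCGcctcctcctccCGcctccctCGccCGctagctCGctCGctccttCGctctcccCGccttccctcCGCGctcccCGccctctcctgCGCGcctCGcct
Lama5: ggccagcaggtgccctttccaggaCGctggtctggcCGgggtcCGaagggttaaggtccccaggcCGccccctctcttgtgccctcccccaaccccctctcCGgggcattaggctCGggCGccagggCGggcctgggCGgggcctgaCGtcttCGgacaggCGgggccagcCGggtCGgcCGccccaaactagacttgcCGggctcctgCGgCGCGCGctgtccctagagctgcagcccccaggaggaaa
Col5a1: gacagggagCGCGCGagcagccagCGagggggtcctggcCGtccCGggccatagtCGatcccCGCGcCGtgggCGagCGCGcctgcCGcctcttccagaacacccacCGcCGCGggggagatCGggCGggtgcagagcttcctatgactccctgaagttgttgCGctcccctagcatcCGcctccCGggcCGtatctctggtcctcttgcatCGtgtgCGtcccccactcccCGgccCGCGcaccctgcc
Col7a1: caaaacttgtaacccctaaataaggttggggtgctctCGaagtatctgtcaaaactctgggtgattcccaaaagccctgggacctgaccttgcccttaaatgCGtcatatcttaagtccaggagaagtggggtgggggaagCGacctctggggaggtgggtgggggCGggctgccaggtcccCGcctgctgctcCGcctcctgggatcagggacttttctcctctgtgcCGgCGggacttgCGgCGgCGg

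The Adamts3 window held 34 CG dinucleotides, a number that 3.03% of 33469 RefSeq promoter windows reached, and the Adamts2 window held 33. Col5a1 had 28, Lama5 had 20 and Col7a1 had 11, and the median over all windows was 5. The GC box, GGGCGG searched on both strands, occurred 4 times in the Lama5 window, 3 times in that of Adamts2, 2 times in that of Adamts3 and 1 time in each of the others, and 30.5% of all windows held at least 1. The Col7a1 promoter region was the CG promoter region of these genes annotated as open sea, that is, away from an island with its shores and shelves.

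Adamts3 (ENSRNOG00000027463), which removes the amino-terminal propeptide of procollagens, showed the largest difference of the 155 regions. Its promoter region of 51 cytosines at chr14:18230865-18231040 was methylated at 40.8% in CUMS against 6.62% in Ctrl. A further region of 33 cytosines, 54 bp downstream and covering the TSS and 5′ untranslated exon, had 33.9% in CUMS and 6.62% in Ctrl. Both lay in the same island, and the differences were 34.2 and 27.3 points. Adamts2 (ENSRNOG00000061484), the related procollagen N-proteinase, had a region of 69 cytosines over its TSS at chr10:34920738-34921066, with 31.0% in CUMS and 8.74% in Ctrl. The island regions of these procollagen N-proteinases had higher CUMS levels than any other island region of the group.

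Lama5 (ENSRNOG00000053691), an alpha chain of endothelial laminins, had a region of 55 cytosines over its TSS at chr3:167318330-167318674, with 22.4% in CUMS and 7.01% in Ctrl. Col5a1, a chain of type V collagen that regulates fibril assembly, had a promoter region of 29 cytosines at chr3:11208233-11208344 with 22.1% in CUMS and 6.52% in Ctrl. The levels in Col7a1, which encodes the collagen of anchoring fibrils, were 18.8% and 7.85% over 9 cytosines. The differences of these 3 promoters lay between 10.9 and 15.6 points. The remaining promoter regions were those of Col16a1, a fibril-associated collagen (13.4% in CUMS and 6.27% in Ctrl), Adamtsl3 (12.4% and 4.05%) and Col13a1, a transmembrane collagen (11.3% and 5.25%), with differences of 6.07 to 8.38 points.

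Island regions outside promoters differed in the same direction, by less than 10 points. Itga1, the alpha chain of a receptor for collagen and laminin, had an intronic island region at 14.0% in CUMS and 4.10% in Ctrl, and this region is also annotated to Pelo. Col15a1, a collagen of the basement membrane zone, had 13.1% and 3.99% in a 5′ untranslated exon, and Nid1, the nidogen that joins the laminin and collagen networks, had 12.9% and 4.85% in an exon. Adamts19 and Col23a1 had 12.8% and 9.87% in CUMS and 4.73% and 4.86% in Ctrl. These 5 differences overlapped in size with those of the promoter regions of Adamtsl3, Col16a1 and Col13a1.

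CG regions in introns away from islands had the opposite balance. Of 13 such regions, 10 were hypomethylated (76.9%), beside 42.5% of the 824 CG regions of this class in the whole list, and these 10 made up all hypomethylated CG regions of the group. Among them, 6 overlapped an annotated repeat, beside 201 of the 350 hypomethylated CG regions of this class in the whole list. The 10 regions belonged to 7 genes: the laminin chains Lamc1 and Lama2, the type IV collagen chains Col4a2 and Col4a6, the type VI collagen chains Col6a3 and Col6a6, and the integrin chain Itga8. Lamc1 held 3 of them and Col4a2 held 2, so they are not independent, and only 5 of the 10 had at least 10 cytosines. The balance was not tested. The median level of the hypomethylated CG regions was 64.8% in Ctrl and 46.5% in CUMS, whereas that of the 18 hypermethylated ones was 6.57% in Ctrl and 20.4% in CUMS. Only Adamts3, Col4a2 and Lamc1 of the 24 genes with a CG region held more than 1, and within each of these 3 the direction was the same.

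**Figure D2:**
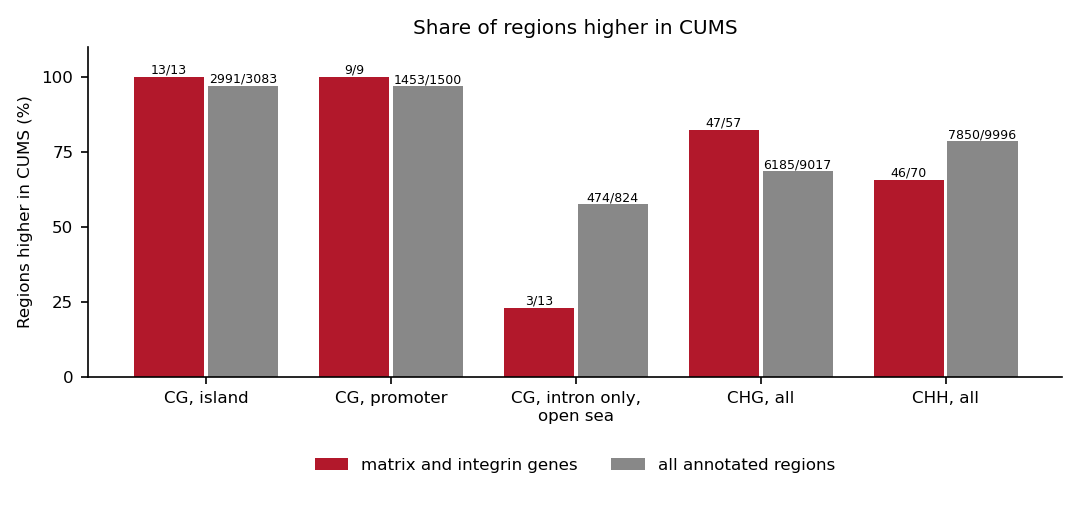
Share of regions with a higher level in CUMS (%, bars from 0) among the matrix and integrin genes (red) and among all annotated regions, members included (grey), for 3 classes of CG region and for CHG and CHH, with the numbers of regions above each bar. The bars of the CG regions in open sea introns (3 of 13 beside 474 of 824) and of CHH lie below the grey bars, and that of CHG lies above.

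Laminins, the heterotrimers that start basement membrane assembly, had 19 regions in 8 of 11 genes. Of these, 13 were hypermethylated (68.4%, beside 75.3% of all annotated regions) and 6 hypomethylated. Lamc1 (ENSRNOG00000002680), the gamma chain shared by most laminins including those of vessels, had 3 hypomethylated CG regions in introns. At chr13:65414280-65414379 methylation was 7.33% in CUMS against 28.7% in Ctrl over 5 cytosines, and at chr13:65414600-65414772, 220 bp further on, it was 10.7% and 38.7% over 10 cytosines. At chr13:65429137-65429231 it was 28.4% and 55.4% over 12 cytosines. None of these regions overlapped an annotated repeat.

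The other laminin regions were mostly outside CG, and most were hypermethylated. Lama3, an alpha chain of epithelial laminins, had the largest CHG difference of the group, 14.6% in CUMS and 0.0192% in Ctrl over 9 cytosines of an intron at chr18:3708215-3708286. A CHH region that surrounds it had 10.2% in CUMS and 0.166% in Ctrl. Lamb3, a beta chain of epithelial laminins, also had a CHG region (6.95% and 0.0165%) within the stretch of a CHH region (7.16% and 0.338%). Lama2, the alpha chain of muscle and glial laminins, had 4 regions with 2 in each direction, among them a CG region in a LINE repeat with 76.8% in CUMS and 91.1% in Ctrl and a CHH region with 0.0249% and 3.74%. Lama4, an alpha chain of endothelial laminins, had a single CHH region with 8.19% in CUMS and 0.144% in Ctrl, and Lamc3 had a CHH region with 5.58% and 0.192%. Besides its promoter region, Lama5 had an exonic CHG region with 0.0182% in CUMS and 3.65% in Ctrl. Lama1, Lamb1, Lamb2 and Lamb4 had no listed region.

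The basement membrane collagens had 9 regions in 5 of 8 genes, 5 hypermethylated (55.6%, beside 75.3% of all annotated regions) and 4 hypomethylated. Col4a2 (ENSRNOG00000023972), a chain of the main type IV collagen of vessel walls, had CG regions of lower level in CUMS at chr16:78062228-78062306 (75.2% in CUMS and 95.6% in Ctrl) and chr16:78068239-78068333 (69.2% and 94.4%), both in introns and both overlapping long terminal repeats. Its CHG region had 2.60% in CUMS and 0.0730% in Ctrl. Col4a1, which encodes the partner chain and lies next to Col4a2, had a CHH region in a LINE repeat with 19.9% in CUMS and 6.21% in Ctrl, the highest Ctrl level among the hypermethylated CHH regions of the group. The nearest regions of Col4a2 and Col4a1 were 143 kb apart.

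Col4a6, a type IV chain on the X chromosome, had 2 annotated regions, both hypomethylated. They were a CG region (76.9% in CUMS and 92.0% in Ctrl over 5 cytosines) and a CHH region (0.0808% and 2.94%). Between them, the full list from which the annotated list was reduced held 9 further CHH regions, 5 hypermethylated and 4 hypomethylated. Col18a1, the source of the angiogenesis inhibitor endostatin, had a hypermethylated CG region in an intron (88.2% and 71.0%) and a CHG region that is annotated as promoter and intron (5.02% and 0.356%). The type IV genes thus included lower CG levels in repeats, and Col18a1 and Col15a1 included higher CG levels outside repeats. Col4a3, Col4a4 and Col4a5 had no listed region.

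Among the linkers of the basement membrane, Nid1 held 4 regions and Nid2, Hspg2 (perlecan) and Agrn (agrin) held none. The island region of Nid1 was followed 450 bp further by a CHG region in the island shore with 5.20% in CUMS and 0.177% in Ctrl. A CHG region farther into the gene had 3.47% and 0.180%, and a CHH region had 0.962% and 7.43%. The first 3 of these regions were hypermethylated and the CHH region, the farthest from them, was hypomethylated. Of the matrix glycoproteins, Fbn1, the main fibrillin of microfibrils, had a CHG region in each direction, with differences of 2.08 and -2.52 points that are close to the smallest of the whole list (2.00 points). Fn1, Fbn2, Spp1, Sparc and Tnc had none.

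Fibrillar collagens had 15 regions in 6 of 11 genes, 12 hypermethylated (80%, beside 75.3% of all annotated regions) and 3 hypomethylated. Col5a1 held 5 of them, all hypermethylated: its promoter region and 4 CHG regions with CUMS levels of 4.37% to 5.79% and Ctrl levels of 0.214% to 0.604%. The largest difference outside CG was that of Col5a2, which encodes the partner chain, with 10.0% in CUMS and 0.173% in Ctrl in a CHH region. All 9 CHG regions of fibrillar collagens were hypermethylated, beside 68.6% of all CHG regions. The 3 hypomethylated regions were CHH regions of Col11a1, Col24a1 and Col27a1. In Col11a1, a fibrillar collagen of cartilage, the levels in CUMS and Ctrl were 0.0817% and 8.39% in the CHH region, and 5.21% and 0.0232% in a CHG region over the TSS. Col24a1 and Col27a1 held 3 regions each, 2 hypermethylated and 1 hypomethylated.

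The remaining collagens formed the largest set, with 36 regions in 18 of 25 genes. Of these, 26 were hypermethylated (72.2%, beside 75.3% of all annotated regions) and 10 hypomethylated. Col23a1, a transmembrane collagen, had 5 hypermethylated regions, the largest a CHG region with 12.7% in CUMS and 0.0469% in Ctrl. Col16a1 had 4 hypermethylated regions, and its CHH region at chr5:142394934-142395182 had 21.6% in CUMS and 1.17% in Ctrl. Col8a1, a network-forming collagen that endothelial cells produce, had 3 hypermethylated CHH regions (8.13%, 8.20% and 9.98% in CUMS) and 1 hypomethylated (0.478% and 4.02%). Col9a2, a collagen associated with cartilage fibrils, had the largest CG difference of this set, an exonic region with 62.0% in CUMS and 39.7% in Ctrl that is also annotated to Rims3.

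The hypomethylated regions of this set belonged to 7 genes. The type VI collagen chains Col6a3 and Col6a6, components of beaded filaments, each had a CG region (10.6% in CUMS and 22.4% in Ctrl for Col6a3, 45.6% and 60.5% for Col6a6) and a CHH region of lower level in CUMS. Their relative Col6a5 had a hypomethylated CHG region, whereas both regions of Col6a4 were hypermethylated. Col6a6, Col6a5 and Col6a4 lie side by side on chromosome 8, with 122 kb and 126 kb between the nearest regions. Col17a1, a collagen of hemidesmosomes, had the largest CHG decrease of the group, 0.349% in CUMS and 9.42% in Ctrl. Col14a1 had 1 hypermethylated CHH region (10.6% and 0.242%) and 2 hypomethylated ones, the nearer of them at a distance of 3074 bp with 0.0685% and 8.48%. Col26a1 had a hypomethylated CHH region alone.

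**Figure D3:**
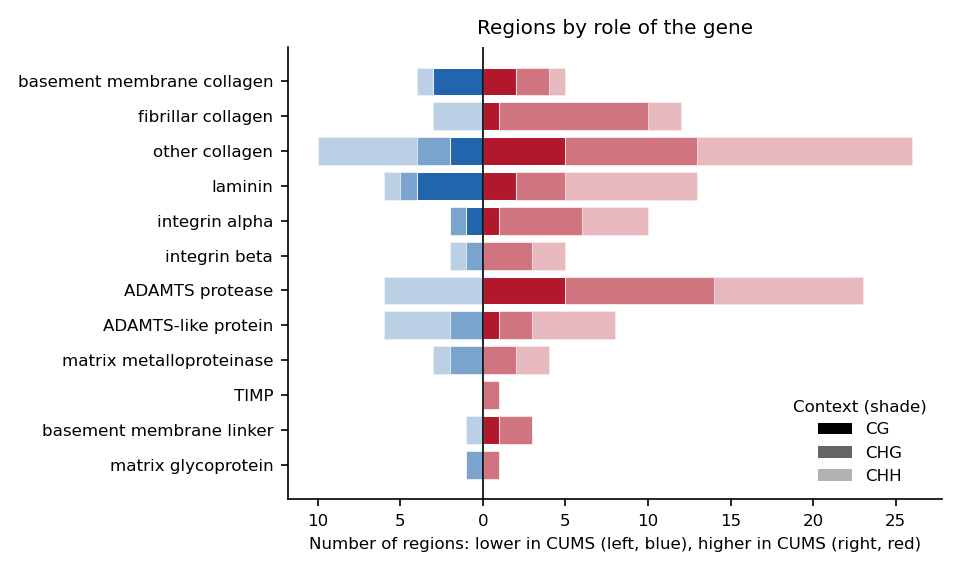
Number of hypermethylated (red, to the right of 0) and hypomethylated (blue, to the left of 0) regions for each role of the gene, with the shade giving the context (CG darkest, CHH lightest). ADAMTS proteases (23 and 6) and the remaining collagens (26 and 10) hold the most regions, and the dark blue CG segments are found in the basement membrane collagens, the laminins, the remaining collagens and the integrin alpha chains.

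Integrins had 19 regions, 15 hypermethylated (78.9%, beside 75.3% of all annotated regions) and 4 hypomethylated. The alpha chains accounted for 12 regions in 6 of 12 genes. Itga8 (ENSRNOG00000016538), an alpha chain that binds the RGD motif of matrix proteins together with Itgb1, held 4 of them. Its CHH region at chr17:75466093-75466351 had 23.2% in CUMS and 0.183% in Ctrl, the largest difference outside CG among the 155 regions. Its CG region at chr17:75359198-75359328, in an intron and overlapping a long terminal repeat, had 47.5% in CUMS and 69.0% in Ctrl over 35 cytosines. The other Itga8 regions, 837 bp apart, had 4.28% and 4.22% in CUMS and levels under 0.1% in Ctrl. Among the annotated regions of Itga8, the CG level was therefore lower in CUMS while all 3 levels outside CG were higher. Between these regions, the full list held 6 further CHH regions, 2 hypermethylated and 4 hypomethylated.

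Itga11, a collagen receptor chain, had CHG regions of opposite direction, 13.2% in CUMS and 0.0374% in Ctrl for the larger difference and 0.0120% and 3.70% for the other. Itga9 had hypermethylated CHG regions with 8.97% and 5.98% in CUMS. Itga1 had a CHG region (4.86% and 0.0139%) besides its island region. Itga7, a laminin receptor chain of muscle, had a CHH region with 9.44% in CUMS and 0.0428% in Ctrl that is also annotated to Cd63, and Itga2b, the platelet fibrinogen receptor chain, had a CHH region over its TSS with 3.94% and 0.220%. Itga5 and Itga6, the alpha chains of fibronectin and laminin receptors of endothelial cells, had no listed region.

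The beta chains had 7 regions in 6 of 8 genes, none of them in CG. Of these, 5 were hypermethylated (71.4%, beside 75.3% of all annotated regions) and 2 hypomethylated. Itgb3, the beta chain of the vitronectin receptor, held 2 hypermethylated regions, a CHH region with 12.3% in CUMS and 0.596% in Ctrl and a CHG region with 3.78% and 0.0987%. The hypomethylated regions belonged to Itgb5 (0.0487% and 3.43%) and to Itgb7 (0.404% and 4.84%), a leukocyte integrin chain. Itgb2, Itgb4 and Itgb6 had 1 hypermethylated region each, with CUMS levels of 5.03%, 5.74% and 4.16%. Itgb1, the partner of most alpha chains, had no listed region, and none of the 3 integrin beta binding protein genes had any.

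ADAMTS proteases had 29 regions in 12 of 19 genes, 23 hypermethylated (79.3%, beside 75.3% of all annotated regions) and 6 hypomethylated. All 5 CG and all 9 CHG regions were hypermethylated, beside 80.0% of all CG and 68.6% of all CHG regions. Adamts3 held 6 regions, all hypermethylated, and outside its promoter the largest difference was a CHH region of an intron with 13.5% in CUMS and 0.919% in Ctrl. Adamts18 held 5 regions. Its CG region in a LINE repeat had 90.6% in CUMS and 72.9% in Ctrl over 7 cytosines, and the CHH region at chr19:41828239-41828481 had 0.0635% in CUMS and 11.6% in Ctrl, the largest decrease outside CG in the group. A CHH region 1644 bp before it had the opposite direction (6.23% and 0.673%). The annotated regions of Adamts12 were hypomethylated alone, CHH regions with 10.1% and 9.35% in Ctrl and levels under 0.1% in CUMS.

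In Adamts2, besides the promoter, a CHG region (7.02% and 0.125%) lay within a CHH region (5.56% and 0.158%) of an intron, and a CHH region farther along had 0.0443% in CUMS and 6.02% in Ctrl. Adamts14, the third procollagen N-proteinase, had hypermethylated CHG regions with 5.52% and 4.38% in CUMS. Among the proteases of aggrecan and related proteoglycans, Adamts8 had a CHH region with a pair of CHG regions inside it, all hypermethylated with CUMS levels of 4.31% to 5.77%, and Adamts1, Adamts4 and Adamts9 had 1 hypermethylated region each, with CUMS levels of 4.64%, 5.72% and 8.73%. The region in Adamts4 is also annotated to Ppox. Adamts6 and Adamts19 each had a hypomethylated CHH region.

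The ADAMTS-like proteins share the non-catalytic domains of the family and lack the protease domain. Adamtsl1 (ENSRNOG00000006956) held 10 regions, the most of any gene in the group, 4 hypermethylated and 6 hypomethylated, all in introns and none in CG. The largest difference in each direction was that of a CHH region, 11.8% in CUMS and 0.206% in Ctrl for the hypermethylated and 4.08% and 11.5% for the hypomethylated. The first regions of the gene lay 729 bp apart, had opposite directions and are also annotated to Sh3gl2. Without Adamtsl1, 107 of 145 regions were hypermethylated (73.8%). Adamtsl3 had, besides its promoter region, CHH regions with 5.95% and 5.40% in CUMS, and Adamtsl5 had a CHH region with 4.93%.

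MMPs had 7 regions in 6 of 24 genes, 4 hypermethylated (57.1%, beside 75.3% of all annotated regions) and 3 hypomethylated, and none in CG. Mmp24, a membrane-type MMP of the nervous system, had hypermethylated CHH regions with 10.3% and 3.74% in CUMS and 0.508% and 0.146% in Ctrl. Mmp2, a gelatinase that degrades type IV collagen, had a hypomethylated CHG region at the border of an exon, with 0.184% in CUMS and 3.17% in Ctrl. Mmp20, the MMP of tooth enamel, and Mmp23 had the other hypomethylated regions, with 4.28% and 4.42% in Ctrl. Mmp1b had a CHG region in its promoter with 5.35% in CUMS and 0.0126% in Ctrl, and Mmp16 had a CHG region with 3.74% and 0.0713%. Mmp9 and Mmp14 had no listed region. Among their inhibitors, Timp1 had a promoter region of 5 CHG cytosines with 4.89% in CUMS and 0.0200% in Ctrl, which is also annotated to Syn1, and Timp2, Timp3 and Timp4 had none.

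**Figure D4:**
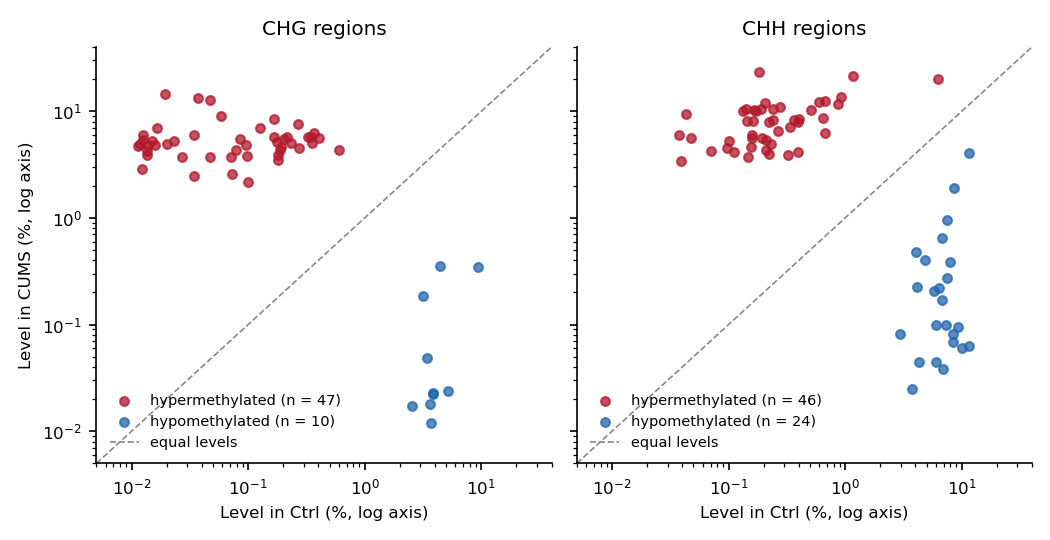
Level in CUMS against level in Ctrl (%, both axes logarithmic) for the 57 CHG and 70 CHH regions, 1 point per region, hypermethylated in red and hypomethylated in blue, with the dashed line marking equal levels. In most regions the lower level is near 0. Exceptions include CHH regions of Col4a1 (19.9% in CUMS and 6.21% in Ctrl) and Adamtsl1 (4.08% in CUMS and 11.5% in Ctrl).

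Outside CG, the lower level of a region was near 0 in most cases, whichever group it belonged to. The medians for CUMS and Ctrl were 5.02% and 0.0787% over the hypermethylated CHG regions, and 0.0234% and 3.78% over the hypomethylated ones. In CHH regions the medians were 8.06% and 0.210% for the hypermethylated and 0.135% and 6.83% for the hypomethylated. In all annotated CHH regions, the corresponding medians were 8.29% and 0.207%, and 0.167% and 5.99%, close to those of the matrix and integrin genes. The tables used here give the sequence coverage of no region, so how many reads lie behind these low levels is unknown. Levels such as the 0.0120% of Itga11 in CUMS, over 5 cytosines, may be finer than the reads of a region resolve. The digits of such levels are printed as deposited, and they are best read as near 0.

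Regions of different context coincided in 5 genes. A CHG region overlapped a CHH region in 6 instances, in Adamts2, Adamts8 (2 instances), Col9a3, Lama3 and Lamb3, and the direction was the same in all 6. They were all hypermethylated, beside 68.6% of all CHG and 78.5% of all CHH regions. Both Adamts8 instances involve the same CHH region, and the agreement over all overlapping regions of the whole list is not given here. A further 9 pairs of neighbouring regions within a gene lay up to 5000 bp apart without overlap, and the direction was the same in 6 and opposite in 3 (Adamtsl1, Adamts18 and Col14a1). Among the 73 genes, 43 had hypermethylated regions alone, 13 hypomethylated regions alone and 17 both, and the last held 61 regions. Of the 73, 34 held 1 region and so could show only 1 direction. The same split over all listed genes was not computed, so the counts are no trait of this group. These counts cover annotated regions only. Between them, the full list added regions of the other direction in some genes, among them Col23a1 (6), Adamts3 (2), Col5a1 (2) and Adamts12 (1). In Col25a1, Lama3, Mmp24 and Itgb3 it added regions of the same direction only.

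**Figure D5:**
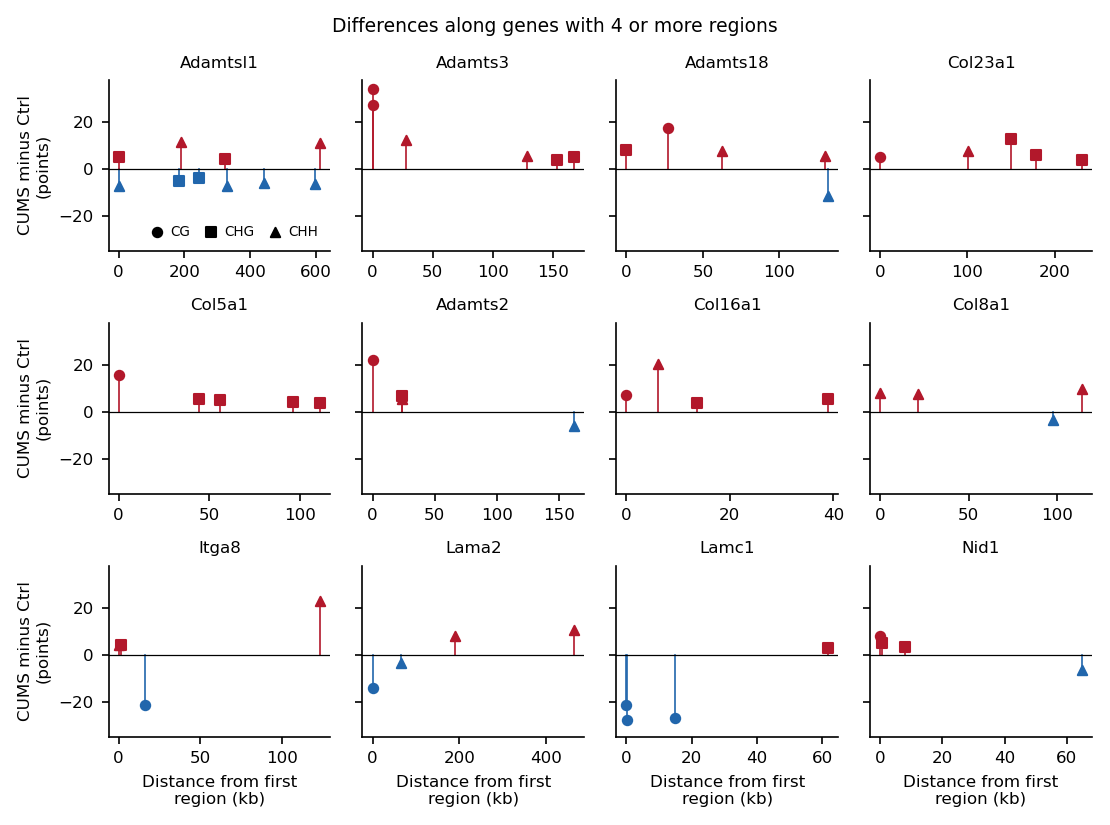
Difference in level (CUMS minus Ctrl, percentage points) along each of the 12 genes with 4 or more regions, against the distance from the first region of the gene in kb, with the context as the marker (circle CG, square CHG, triangle CHH). Adamts3, Col23a1, Col5a1 and Col16a1 have differences above 0 alone, Lamc1 has 3 CG differences below 0, and the 10 regions of Adamtsl1 fall on both sides of 0.

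The positions of the regions within genes were compared last. Introns held 121 of the 155 regions without any other feature, and 82 of these were hypermethylated (67.8%, beside 73.5% of the 8010 such regions in the whole list). Promoters held 14 regions of any context in 13 genes, all hypermethylated, beside 2030 of 2287 promoter regions in the whole list (88.8%). Exons held 25 regions, 20 of them hypermethylated, beside 87.8% of all annotated exon regions. These shares mix contexts unequally, since CG made up 8 of the 25 but 1937 of all 2930 exon regions. By context, 8 of 8 CG exon regions were hypermethylated (beside 96.7%), 6 of 11 CHG (beside 67.4%) and 6 of 6 CHH (beside 78.0%). Annotated repeats overlapped 27.1% of the 155 regions, beside 47.1% of all annotated regions, which also include intergenic ones. Of the 155 regions, 8 are annotated to another gene as well and cannot be assigned to either gene alone.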

How the data were processed

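Enzymatically converted libraries of 3 Ctrl and 3 CUMS samples, grouped by their titles, had been sequenced. A cytosine that escapes deamination is read as methylated. Per the submitters' processing notes and the study's methods, reads were trimmed with fastp 0.20.0, checked with FastQC 0.11.3 and aligned to mRatBN7.2 with Bismark 0.16.3 and Bowtie2, and regions were called with DSS on both groups. Levels were deposited as a fraction, 1 per group and region, and are given in percent. The authors' columns of level differences and of region scores were not used. The deposited tables hold no counts, coverage, p-values or values per sample (the methods give coverage per sample only), so the depth of a region is unknown and no test was made. The annotated list holds 9996 of the 145823 CHH regions of the full list and nearly all of its CG and CHG regions.

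Regions were selected by gene symbol with Python 3.11.15 and pandas 2.3.3, reading the symbols starting with Itga as requiring a digit, and the selection was tested on simulated rows. The members and the gene lists were chosen with earlier results of these data known. Genes were named by rule: per role, the 2 genes with the most regions and the regions with the largest rise and fall in CG and outside CG; CG promoter regions; genes with CG regions of both directions (there were 0); and 42 genes of the basement membrane and of matrix adhesion, 23 of them without a region. A gene covered by these rules is not reported here by name. Other genes named were chosen after their values were seen. Alternatives changed the limits on difference, cytosines and length, joined regions within 1 kb, left out classes of genes or regions, or used the full list.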

Additional observations from a re-analysis of the deposited data

Results flagged for a closer look

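The full list, from which the annotated list was reduced, contained further regions between the first and last annotated region of 39 of the genes. They were singled out because no comparison above uses them beyond the counts given for single genes. There were 221, all CHH, of which 139 were hypermethylated and 82 hypomethylated. The hypermethylated share was 62.9%, beside 63.5% of all 135823 further regions of the full list. Median levels were 2.99% in CUMS and 0.161% in Ctrl for the hypermethylated regions and 0.174% and 2.73% for the hypomethylated ones. The differences ranged from 2.00 to 13.7 points in size. These regions carry no gene annotation.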

How the results depend on the processing

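The share of hypermethylated regions stayed between 66.5% and 73.8% under every alternative but the limit of 20 points, which left 7 hypermethylated and 6 hypomethylated regions (53.8%) in 8 genes. With at least 10 points, 26 were hypermethylated and 12 hypomethylated in 27 genes. That limit left 10 hypermethylated CG regions, 3 CHG and 13 CHH, 0 hypomethylated CHG and 2 hypomethylated CHH regions, 6 promoter regions, 7 roles with more hypermethylated than hypomethylated regions and 12 pathway genes, and it turned the median difference of CG regions from 8.06 to -0.40 points. A minimum of 10 cytosines left 5 hypomethylated CG regions, and a length of at least 100 bp raised the CG median to 12.6 points. The full list within gene spans gave 250 hypermethylated and 126 hypomethylated regions. Reading every symbol that starts with Itga as a member added Itgae and Itgav (112 and 45). Leaving out regions in repeats, chosen after seeing the data, left 83 and 30. Of 55 recomputed values, 36 stayed within 1.5 times. No paired analysis was possible because each region has 1 value per group, and leaving out single samples could not be run for the same reason. The depth of each region is unknown, so small differences near 0 carry an unknown counting error.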

Other observations

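Genes that act next to the matrix genes were counted from a pair of lists written with earlier results known. Of 23 genes of the adhesion complex that joins integrins to actin, 13 held a region, beside 25.9% of all protein-coding symbols. They held 38 regions, 29 hypermethylated (76.3%, beside 75.3% of all annotated regions) and 9 hypomethylated. In CG, 9 of the 10 regions were hypermethylated, beside 80.0% of all CG regions. The largest differences were those of Tln2, a talin that activates integrins, whose intronic CHH region had 27.4% in CUMS and 0.797% in Ctrl, and of Tns1, a tensin that links integrins to actin, whose intronic CG region had 41.2% and 66.8%. The Tns1 region was the single hypomethylated CG region of this list.

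Of 18 genes that process and cross-link collagen, 6 held a region, beside 25.9% of all protein-coding symbols, and they held 12 regions. Of these, 7 were hypermethylated (58.3%, beside 75.3% of all annotated regions) and 5 hypomethylated. The promoter island of Bmp1, the procollagen C-proteinase, had 31.2% in CUMS and 5.98% in Ctrl over 42 cytosines, beside the promoter islands of the N-proteinases Adamts3 and Adamts2 with 40.8% and 31.0% in CUMS. Loxl1, a lysyl oxidase that cross-links elastin, had an island region with 34.1% and 20.4%. All 4 CG regions of these processing genes were hypermethylated, beside 80.0% of all CG regions and 97.0% of those in islands.

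Among 5 pairs of neighbouring member genes with regions up to 200 kb apart, the nearest regions had the same direction in 2 (Col4a2 with Col4a1, Col6a6 with Col6a5) and opposite directions in 3 (among them Mmp1b with Mmp20 and Col6a5 with Col6a4). The nearest regions could differ in context. For Col4a2 the nearest was its CHG region (2.53 points), whereas its CG regions were hypomethylated. The share over neighbouring genes of the whole list was not computed. Of 11 genes of the vessel basement membrane, a list made after the values were seen, 6 held 15 regions, 8 hypermethylated and 7 hypomethylated, beside a hypermethylated share of 75.3% among all annotated regions and a region in 25.9% of all protein-coding symbols.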
